A study of Mus musculus with 14 samples.

Results

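The genes described here are 10 members of the bone morphogenetic protein (BMP) pathway: the ligands Bmp2, Bmp3, Bmp4 and Bmp6, the endothelial receptors Bmpr2, Acvrl1 and Eng, and the target genes Id1, Id3 and Smad6. They were found on the arrays by the gene name of each non-control probe, which gave 11 probes for 10 of 34741 named genes. The probe of a gene was chosen by its mean log2 signal over the 14 arrays, the highest where there was more than 1, so the levels below are a description and that choice is tested nowhere. The genes were also picked with earlier results of these data known, among them the sinus difference of Bmp3, so that the tests below describe these arrays and are not independent evidence.

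The samples held lymphatic endothelial cells of C57Bl/6 mice. Some came from the subcapsular sinus, where lymph enters a lymph node, and some from the medullary sinus, through which it leaves. By laser-capture microdissection (LCM), 50 cells per sample were cut from frozen sections of inguinal, axillary and brachial nodes stained for CD31, an endothelial surface protein, and F4/80, a macrophage surface protein. There were 5 subcapsular and 5 medullary LCM samples. By fluorescence-activated cell sorting (FACS), 1200 cells per sample were collected from nodes of more sites after digestion with liberase and DNase I, with a lineage antibody cocktail, antibodies to CD73 and podoplanin, and 7-AAD to leave out dead cells, which gave 2 samples per sinus. All mice were of the same strain, with no transgene or treatment named, and which gate separated the sinuses, the age of the animals and whether animals were pooled are not given in the sources used here. The titles call the samples biological replicates but do not tie them to animals, so p-values measure the spread between these samples.

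BMP ligands are secreted dimers that bring together type I and type II receptor kinases, which phosphorylate Smad transcription factors that enter the nucleus and switch on target genes. In endothelium the type I receptor Acvrl1 (ALK1), the type II receptor Bmpr2 and the co-receptor endoglin (Eng) form the receptor set that responds to circulating ligands of the family, and the pathway is known for its roles in vessel sprouting, vessel identity and lymphatic valve formation. The Id genes are early targets of the Smads, and Smad6 is a target that acts back on the receptors as an inhibitor.

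All values are log2 signals of 1-colour Agilent arrays minus the array's own 75th percentile over all non-control probes, so that 0 is the level of that percentile and a step of 1 is a doubling. The probes that the results turn on are given by the first 30 of their 60 bases, 5′ to 3′ in the sense of the transcript, because each level is the signal of that stretch of the transcript alone. Nothing is marked in capitals. The Bmp3 probe showed the sinus difference, the Bmp4 probes gave unlike signals, and the Eng and Id3 probes varied most between subcapsular arrays apart from Bmp2.
Bmp3 probe: agaatgtagtgctcaaagtctaccctaaca
Bmp4 probe used: caaccacctacacataccacacaaactgct
Bmp4 probe not used: gacaaatatatttataactacatattaaaa
Eng probe: tacagaactgcccaatccaggggctctggg
Id3 probe: tccgcatctcccgatccagacagctgagct

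Positions are those in the scanner files, on the mouse build mm9. The Bmp3 probe lies at chr5:99308890-99308949 on the plus strand and starts at base 2022 of the transcript NM_173404. The Bmp4 probe used lies at chr14:47003391-47003450 on the minus strand and starts at base 1738 of NM_007554, and the other lies nearer the 3′ end, at chr14:47003198-47003257, from base 1931. The Eng probe lies at chr2:32537268-32537327 (plus strand, NM_001146350). The Id3 probe covers 175 bases of genome at chr4:135700075-135700249 (plus strand, NM_008321), more than its 60 bases, so it spans an intron. Every other probe covered 60 bases of genome: Bmp2 at chr2:133388260-133388319, Bmp6 at chr13:38591479-38591538, Bmpr2 at chr1:59927276-59927335, Acvrl1 at chr15:100974010-100974069, Id1 at chr2:152563083-152563142 (all plus strand) and Smad6 at chr9:63800980-63801039 (minus strand). Whether a probe lies in coding sequence or in a UTR was not analysed here.

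Detection differed between the arrays. Between 50.77% and 69.02% of probes per array passed the scanner software's test against background in subcapsular LCM samples. The share was 67.35% to 75.31% in medullary LCM, 66.28% to 77.84% in subcapsular FACS and 69.04% to 78.95% in medullary FACS samples. The lowest share, 50.77%, was that of subcapsular LCM replicate 2, and results that rest on this array are also given without it. Of the 10 genes, 5 to 8 were above background on a subcapsular LCM array, 8 or 9 on a medullary LCM array, 7 on each subcapsular FACS array and 8 or 9 on a medullary FACS array.

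Markers of the labelled cell type were checked first. Prox1, the transcription factor that defines lymphatic endothelium, and Pecam1, which encodes CD31, were above background on all 14 arrays. Of 11 lymphatic endothelial markers, these included, 5 to 9 were above background per subcapsular LCM array and 7 to 10 per medullary one. The number was 8 or 9 on a subcapsular and 5 or 6 on a medullary FACS array. Lyve1 was above background on 3 of 5 arrays of each LCM group and 1 of 2 subcapsular FACS arrays. For Pdpn, which encodes podoplanin, it was 1 of 5 subcapsular and 4 of 5 medullary LCM and 1 of 2 subcapsular FACS arrays. The summed linear level of 11 lymphatic endothelial markers (1 is the 75th percentile) was 7.14 to 120 on the subcapsular LCM arrays, 24.2 to 50 on the medullary LCM arrays and 18.6 to 42.8 on the subcapsular FACS arrays. On the medullary FACS arrays it was only 2.61 and 7.92, and Lyve1, Mmrn1, Cdh5 and Ackr4 were above background on 0 of 2 of them, while Prox1, Pecam1, Pdpn and Reln were on 2 of 2. By gene, 4 of the 9 lymphatic markers tested in FACS had a medullary minus subcapsular difference above 0 and 5 below. Macrophage markers (12 genes) summed to 321 to 1480 in subcapsular and 81.2 to 181 in medullary LCM samples. Blood endothelial markers, those of high endothelial venules included (11 genes), summed to 32.2 to 162 in subcapsular and 211 to 337 in medullary LCM samples. The part of these other cells in any result below was not tested, and in such bulk samples fewer cells of a type and less RNA per cell cannot be told apart.

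**Figure D1:**
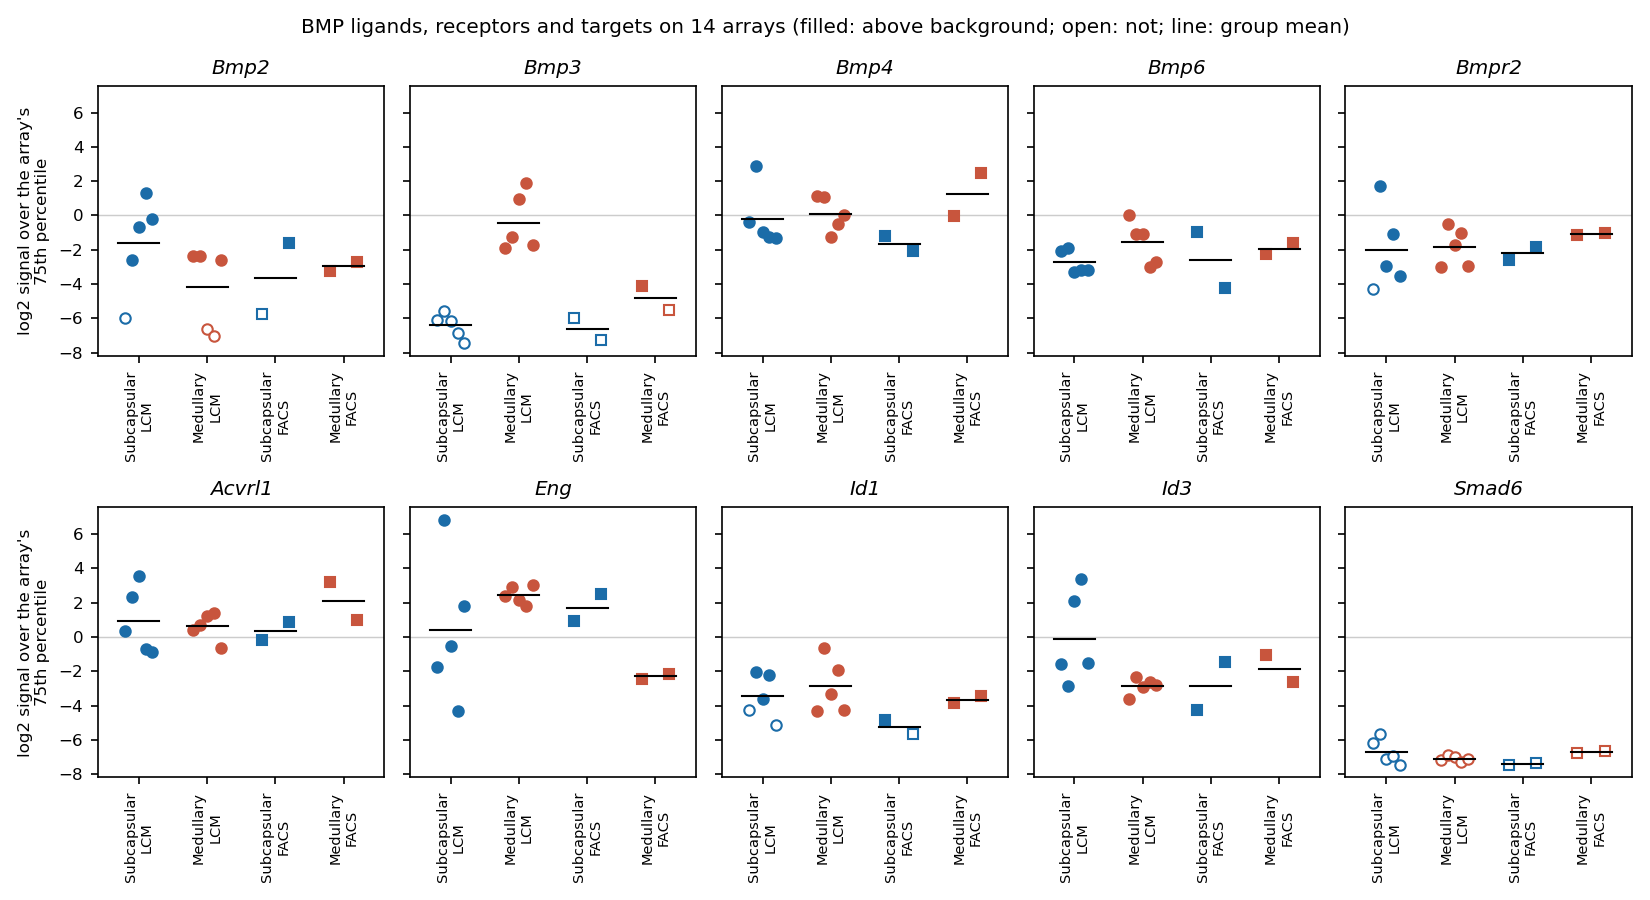
Log2 signal over the array's 75th percentile (vertical axis) of the 10 genes on each of the 14 arrays, by sinus and isolation, with filled points for arrays where the probe was above background, open points for the others, and a line at the group mean. The medullary LCM points of Bmp3, from -1.91 to 1.89, all lie above the subcapsular ones, whereas Smad6 has open points only.

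Among the ligands, Bmp3 separated the sinuses in dissected cells. Bmp3 encodes an atypical BMP that is known to oppose the signalling of other BMPs. No subcapsular LCM array showed it well above background, at -6.10, -5.57, -6.15, -6.84 and -7.44 for replicates 1 to 5. All 5 medullary LCM arrays did, at -1.91, -1.27, 0.94, 1.89 and -1.75. The groups did not overlap, with a mean of -6.42 ± 0.73 in the subcapsular and -0.42 ± 1.73 in the medullary samples (SD, n = 5 each). The measured difference was 6.00 ± 0.82 on the log2 scale (limma estimate ± SE, 63.9-fold), with an adjusted p of 0.0233.

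Because no subcapsular array was above background, the measured 63.9-fold rests on signals below detection, and only a lower limit of the fold can be given. Each subcapsular array was given a floor, the lowest signal that counted as above background there or the measured one if higher (mean -4.50). Against it, the mean of Bmp3 was at least 16.9-fold higher in medullary than in subcapsular LCM samples (4.08 in log2). This limit holds only for the background correction used here, and with normexp the difference was 2.09. The floor is that of any probe on the array, not of the Bmp3 probe, and no spread between arrays is allowed for. The same limits apply to the other folds given as at least a value below. Of 27353 genes tested in LCM, 48 (0.175%) were called at an adjusted p under 0.05 (Benjamini-Hochberg over all genes tested), 46 of them higher (0.168%) and 2 lower (0.00731%). Bmp3 was the 1 gene called among the 9 BMP genes tested. It entered the test through the medullary arrays alone, the side on which it was high. With no filter on detection its adjusted p was 0.0291 (limma). The blood endothelial marker sum separated the LCM groups in the same direction, at 32.2 to 162 against 211 to 337. By gene, 10 of the 11 blood endothelial markers had an LCM difference above 0 (as in 52.6% of all genes) and 1 below. Of the 11, 3 were called higher, and for 6 the groups did not overlap, beside 3.09% of all genes. The part of such cells in the Bmp3 difference was not tested.

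The call of Bmp3 depended on the processing, as the plot of its difference under each setting shows. It was lost with normexp background correction, where the difference was 2.09 (adjusted p = 0.289), with quantile normalization (5.74, adjusted p = 0.0726) and in the deposited log2 values (5.64, adjusted p = 0.067). It was also lost with the slide row (6.40, adjusted p = 0.0513) or the replicate number (6.00, adjusted p = 0.171) as a block. In row 1 the subcapsular LCM arrays lay on slide 1 and the medullary ones on slide 2, so sinus and slide cannot be told apart there. In row 2, replicate 5 was the only subcapsular LCM array. With the slide as a block the difference was 5.67 (adjusted p = 0.0453), and within slide 1 it was 5.67 (adjusted p = 0.0184). These 2 settings hold the same contrast, because all subcapsular LCM arrays lay on slide 1. Leaving out each array in turn gave differences of 5.42 to 6.37 and adjusted p-values of 0.0164 to 0.0498.

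**Figure D2:**
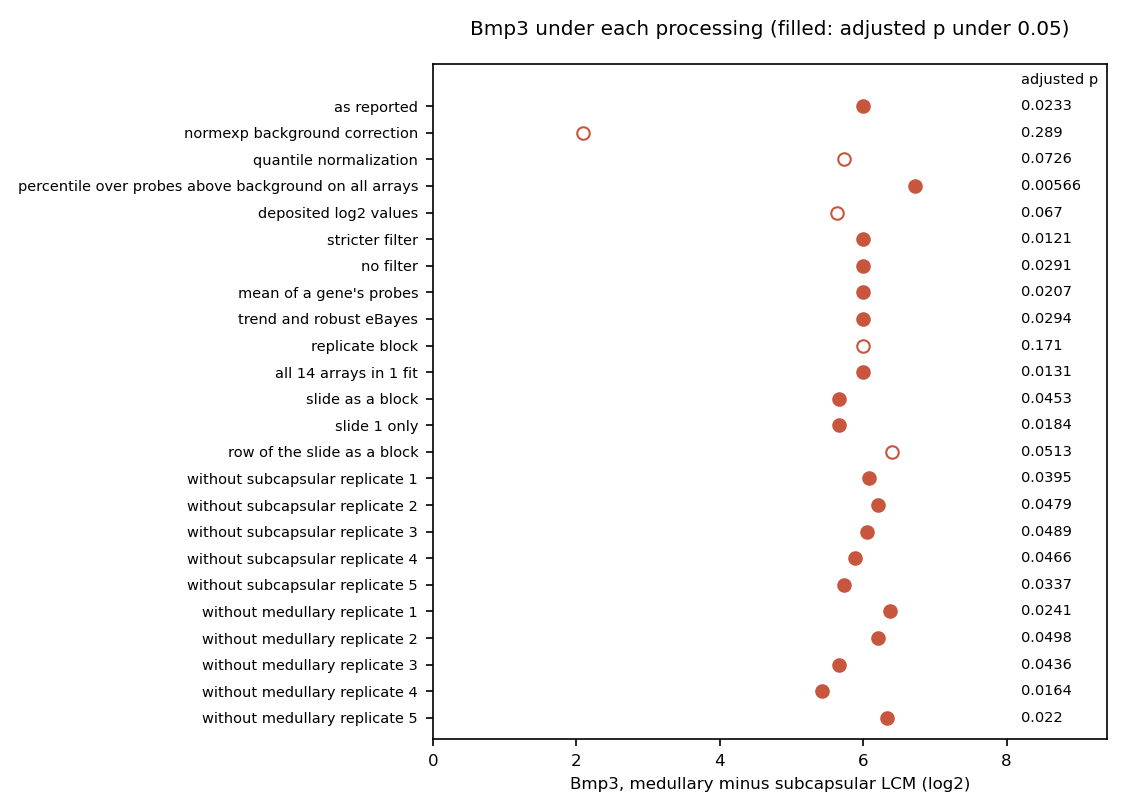
Medullary minus subcapsular difference of Bmp3 in LCM samples (horizontal axis, log2) under each processing setting (vertical axis), filled where the adjusted p was under 0.05, with that p at the right. All estimates are above 0, and the lowest, 2.09, is that with normexp background correction.

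In the sorted cells Bmp3 was dim. The subcapsular FACS arrays gave -5.98 and -7.28, neither above background. The medullary FACS arrays gave -4.12 and -5.52, the first of which was above background, so the gene was not tested there. No bound on the fold is given for this isolation, because only 1 of 2 medullary arrays was above background. The test of whether the sinus difference differed between the isolations gave -4.19 ± 1.31 (the FACS sinus difference less the LCM one, adjusted p = 0.114), which missed the threshold. The medullary LCM mean was the highest of the 4 groups, 4.40 above the medullary FACS mean, a step larger than either SD. The other 3 groups lay at or near the background and are given no order.

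The other ligands did not pass the test in either isolation. Bmp2, a classical activating ligand also made by endothelium, was -6.0 (not above background), -2.60, -0.69, 1.32 and -0.20 on the subcapsular LCM arrays. The medullary LCM arrays gave -2.37, -2.34, -6.64, -7.04 and -2.59, with replicates 3 and 4 not above background. The 3 highest subcapsular values, of replicates 3 to 5, exceeded every medullary value, and the other 2 lay among them. The difference was -2.56 ± 1.48 (adjusted p = 0.529). In FACS samples Bmp2 was -5.75 (not above background) and -1.59 in the subcapsular and -3.22 and -2.72 in the medullary pair, which overlapped (0.70 ± 1.59, adjusted p = 0.754, and -1.38 without subcapsular FACS replicate 6).

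Bmp4, the close relative of Bmp2, was above background on all 14 arrays with the probe used. It was -0.38, 2.87, -0.94, -1.26 and -1.31 in subcapsular and 1.11, 1.09, -1.23, -0.49 and 0.00 in medullary LCM samples. Replicate 2 was the highest of the subcapsular samples by a wide gap, and the groups overlapped. The LCM difference was 0.30 ± 0.88 (adjusted p = 0.92), and without that array it was 1.07 (adjusted p = 0.517).

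In FACS samples Bmp4 was -1.21 and -2.09 in the subcapsular and -0.01 and 2.50 in the medullary pair. The pairs did not overlap, and the difference was 2.90 ± 1.09 (7.45-fold, adjusted p = 0.165). The second Bmp4 probe, nearer the 3′ end of the transcript, was not above background on any array, at -7.36 to -5.53, so the results on Bmp4 rest on 1 probe.

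Bmp6, the ligand known from iron control in the liver, where endothelial cells make it, was also above background on all 14 arrays. It was -2.07, -1.88, -3.30, -3.18 and -3.17 in subcapsular and 0.04, -1.07, -1.09, -2.99 and -2.73 in medullary LCM samples. Medullary replicates 1 to 3 lay above every subcapsular value, and replicates 4 and 5 lay among them. These are the replicates on different slides: 1 to 3 on slide 1 with the subcapsular LCM arrays, and 4 and 5 on slide 2. The difference was 1.15 ± 0.68 (adjusted p = 0.539), and it was 2.01 with the slide as a block (adjusted p = 0.274) and within slide 1 (adjusted p = 0.268). The last 2 settings hold the same contrast. In FACS samples it was -0.97 and -4.25 against -2.26 and -1.62, which overlapped (0.67 ± 1.31, adjusted p = 0.717), and the sign turned with quantile normalization (-0.08) and in the deposited values (-0.06).

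**Figure D3:**
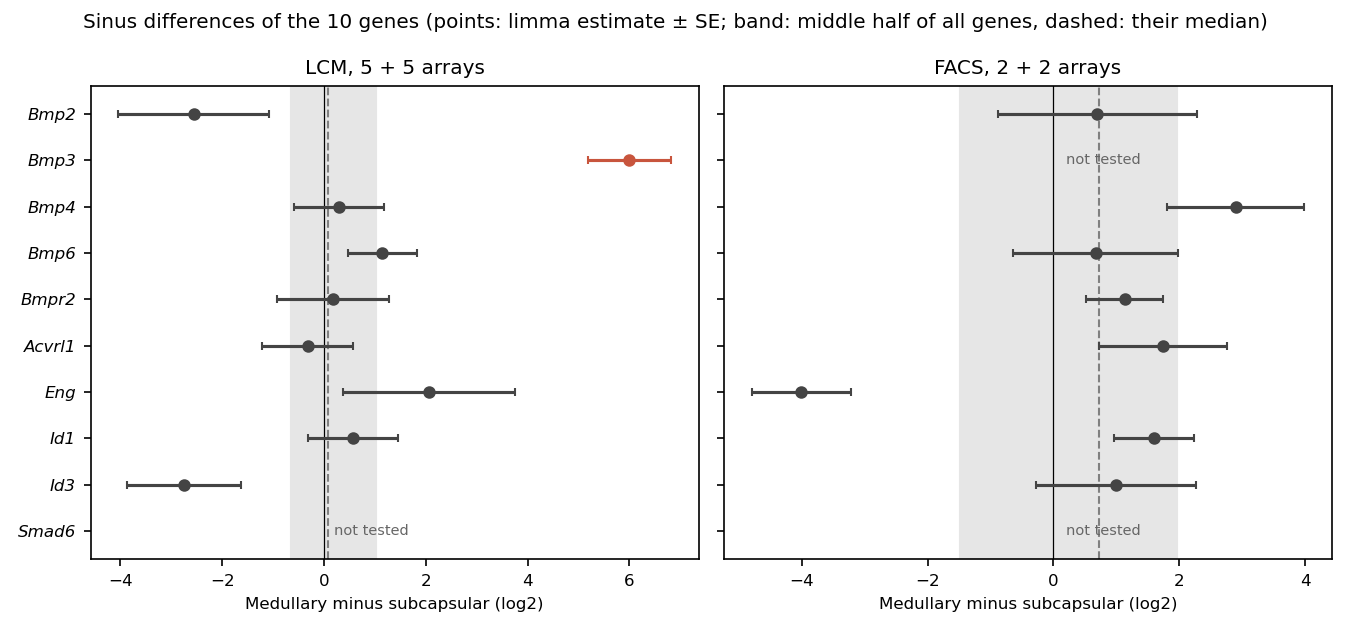
Medullary minus subcapsular difference (horizontal axis, log2, limma estimate ± SE) of each of the 10 genes in LCM (left, 5 and 5 arrays) and FACS samples (right, 2 and 2 arrays), with the interquartile range of all genes tested as a grey band and their median as a dashed line. Bmp3 at 6.00 in LCM is the 1 gene past the threshold, drawn in red, and Eng lies at -4.01 in FACS without passing it.

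Of the receptors, Eng had the widest spread. Endoglin is a co-receptor that presents ligand to Acvrl1 and is abundant on proliferating and blood vascular endothelium. It was -1.76, 6.84, -0.53, -4.33 and 1.83 on the subcapsular LCM arrays, a range of 11.16 or 2290-fold, and of 6.15 or 71.3-fold without replicate 2. The medullary LCM arrays gave 2.42, 2.93, 2.16, 1.81 and 3.06, a range of 1.26 or 2.39-fold. The medullary samples lay close together, inside the subcapsular range only through replicate 2: without it, 4 of 5 medullary values exceeded every subcapsular one.

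The LCM difference of Eng was 2.06 ± 1.69 (adjusted p = 0.684), and without subcapsular replicate 2 it was 3.67 (adjusted p = 0.265). Subcapsular replicate 2, where Eng was highest, was also the array with the highest summed lymphatic marker level (120) and macrophage marker level (1480). The blood endothelial marker sum there was 162, the highest of the subcapsular LCM arrays. The part of these cells and of the scaling in the Eng value was not tested.

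In FACS samples Eng was 0.92 and 2.50 in the subcapsular and -2.44 and -2.16 in the medullary pair. The pairs did not overlap, and the difference was -4.01 ± 0.79 (16.1-fold, adjusted p = 0.0922), short of the threshold. The 2 medullary FACS samples were also those with the lowest summed lymphatic marker levels, 2.61 and 7.92, and their blood endothelial marker sums were 53.7 and 5.03, against 78.7 and 214 in the subcapsular pair. By gene, 6 of the 10 blood endothelial markers tested in FACS had a difference above 0, with a median of 0.46. The part of endothelial content in this difference was not tested. The interaction, which sets the FACS sinus difference against the LCM one, was -6.07 ± 2.51 (adjusted p = 0.196), and without subcapsular LCM replicate 2 it was -7.68 (adjusted p = 0.0452), so that 1 array decided this call.

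Bmpr2, the type II receptor kinase, was -4.28 (not above background), 1.72, -2.92, -1.06 and -3.55 in subcapsular LCM samples. In medullary LCM samples it was -3.03, -0.48, -1.70, -1.04 and -2.96, within the subcapsular range, and without subcapsular replicate 2 the highest 2 exceeded every subcapsular value. The difference of 0.18 ± 1.10 (adjusted p = 0.969) had no stable sign, since it was -0.24 with normexp, -0.30 with quantile normalization and -0.28 in the deposited values, and it was 1.11 (adjusted p = 0.618) without subcapsular replicate 2. In FACS samples the values were -2.59 and -1.82 against -1.14 and -1.0, which did not overlap (1.13 ± 0.61, adjusted p = 0.255).

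Acvrl1, the type I receptor ALK1, was above background on all 14 arrays. It was 0.32, 2.35, 3.56, -0.71 and -0.85 in subcapsular and 0.43, 0.68, 1.22, 1.38 and -0.64 in medullary LCM samples. The medullary values again lay inside the subcapsular range. The difference of -0.32 ± 0.90 (adjusted p = 0.917) turned to 0.09 with quantile normalization, 0.41 with the percentile of the probes detected on all 14 arrays and 0.06 in the deposited values. In FACS samples Acvrl1 was -0.16 and 0.88 against 3.19 and 1.00, without overlap, and the difference was 1.74 ± 1.02 (adjusted p = 0.279).

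Among the targets, Id3 came nearest to a sinus difference in LCM samples without passing the test. Id proteins bind and silence basic helix-loop-helix transcription factors. Id3 was -1.58, -2.88, 2.08, 3.39 and -1.53 on the subcapsular and -3.62, -2.34, -2.92, -2.61 and -2.81 on the medullary LCM arrays. Of the subcapsular values, 4 of 5 exceeded every medullary one, and that of replicate 2 lay among them. The medullary values were tight (SD 0.48) and the subcapsular ones wide (SD 2.69).

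The LCM difference of Id3 was -2.75 ± 1.12 (6.75-fold), with an adjusted p of 0.387, and without subcapsular replicate 2 it was -3.45 (adjusted p = 0.277). Macrophage and fibroblastic reticular marker sums were higher on every subcapsular than on any medullary LCM array, at 321 to 1480 against 81.2 to 181 and 124 to 391 against 42.9 to 99.4. B cell marker sums were likewise 151 to 326 against 96.8 to 143, with 6 of 6 markers above background on all 14 arrays. The LCM difference was above 0 for 0 of 11 macrophage, 2 of 8 fibroblastic reticular and 0 of 6 B cell markers tested. It was above 0 for 52.6% of all genes. The part of these cells in the Id3 values was not tested. In FACS samples Id3 was -4.27 and -1.44 against -1.08 and -2.62, which overlapped, with a difference of 1.00 ± 1.27 (adjusted p = 0.579).

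Id1, a classical direct target of BMP signalling, was -4.28, -2.06, -3.61, -2.23 and -5.14 in subcapsular LCM samples, with replicates 1 and 5 not above background. In medullary LCM samples it was -4.33, -0.65, -3.31, -1.90 and -4.26. The groups overlapped, and the difference of 0.57 ± 0.89 (adjusted p = 0.84) turned to -0.28 both with quantile normalization and in the deposited values. In FACS samples Id1 was -4.84 and -5.66 (the latter not above background) against -3.86 and -3.44, without overlap (1.60 ± 0.64, adjusted p = 0.175). Smad6 was not well above background on any of the 14 arrays, at -7.48 to -5.67, and was not tested.

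Read as a group, the 10 genes did not follow 1 pattern between the sinuses. In LCM samples 9 were tested, 6 with a difference above 0 (as in 52.6% of all genes) and 3 below, with a median of 0.30 beside 0.08 over all genes tested. At an unadjusted p under 0.05 (limma) there was 1 higher (Bmp3) and 1 lower (Id3), and 11.7% of all genes passed that mark. Bmp3 was the 1 gene of the 9 whose LCM groups did not overlap, beside 3.09% of all genes (1.03% with the medullary group higher).

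In FACS samples 8 were tested with limma, 0 were called, and so were 0 of 27634 genes (0%). At an unadjusted p under 0.05 there was 1 of the 8, Eng, and 8815 genes (31.9%) overall. Of the 8 differences 7 were above 0 (as in 59.5% of all genes), and their median was 1.06, beside 0.73 over all genes tested. Relative to that median of all genes Eng differed by -4.74 and Bmp4 by 2.16. The FACS pairs did not overlap for Bmp4, Bmpr2, Acvrl1, Id1 and Eng, 5 of the 8, and 69.6% of all genes tested in FACS did not overlap either, a share near that of the 5 genes.

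The 2 subcapsular FACS arrays shared 1 row of the slide and the 2 medullary FACS arrays the other, so row and sinus cannot be told apart there. Across all 4 groups, 25 of 30 steps between neighbouring group means were within the larger SD of the pair. Of the 5 others, 3 (2 of Smad6, 1 of Bmp3) ran to groups with no array above background and have no meaning as steps. That left the step between the medullary groups in Bmp3 and the step of 1.60 from medullary to subcapsular FACS in Id1.

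Isolation was compared next. In the fit over 14 arrays, 0 of the 9 genes tested were called between FACS and LCM samples, beside 1145 of 29654 genes (3.86%), and 1 passed an unadjusted p of 0.05 (limma), beside 16.1% of all genes. That gene was Bmp3, at -2.30 ± 0.65 (adjusted p = 0.0768). Within the sinuses its FACS minus LCM difference was -4.40 in the medullary samples, while both subcapsular groups were below background. Eng was -1.74 (adjusted p = 0.562), with 1.30 in the subcapsular and -4.78 in the medullary samples, and Id1 was -1.27 (adjusted p = 0.384). The other 6 genes had adjusted p-values of 0.727 or more. Of the 9 estimates 2 were above 0, beside 57.3% of all.

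The test of sinus against isolation called 0 of the 9 genes as well, beside 383 of 29654 genes (1.29%), 0.553% higher and 0.739% lower. Of the 9 estimates 6 were above 0, beside 57.7% of all. At an unadjusted p under 0.05 (limma) there were 2, Bmp3 and Eng, beside 21.3% of all genes. Id3 gave 3.76 ± 1.84 (adjusted p = 0.256), Bmp2 3.26 ± 2.42 (adjusted p = 0.44) and Bmp4 2.60 ± 1.46 (adjusted p = 0.312). For Bmp6, Bmpr2, Acvrl1 and Id1 the adjusted p-values were 0.852, 0.757, 0.421 and 0.671. This comparison uses the same arrays as both sinus comparisons.

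The rest of the pathway was read through 54 further genes: 13 ligands, 12 receptors and co-receptors, 7 Smads and Smurfs, 14 extracellular or membrane inhibitors and 8 targets. In LCM samples 38 were tested and limma called 0, with 19 differences above and 19 below 0, a median of -0.01 beside 0.08 over all genes, and 1 higher and 4 lower at an unadjusted p under 0.05, beside 11.7% of all genes. The ligands known for endothelial ALK1 fell on different sides of detection. Gdf2, which encodes BMP9, was not above background on any array, and neither were Gdf6 and the inhibitor Smad7.

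Bmp10, the other ALK1 ligand, was above background on all 14. It was 1.72, 0.77, -0.69, 1.10 and 1.57 in subcapsular and 2.35, 2.49, 2.19, 1.95 and 2.40 in medullary LCM samples. The groups did not overlap, with a difference of 1.38 ± 0.54 (adjusted p = 0.373). Of the 38 pathway genes tested in LCM, 2 had groups that did not overlap, Bmp10 and Acvr1, beside 3.09% of all genes. Both are named here for their low p-values. In FACS samples Bmp10 was 1.29 and -0.57 against 3.05 and 3.31 (2.82 ± 0.86, adjusted p = 0.136). The ligand Bmp8b was detected on 3 of 5 medullary but 0 of 5 subcapsular LCM arrays (3.61 ± 1.69, adjusted p = 0.44), and on no FACS array. No bound on its fold is given, because medullary LCM replicates 1 and 5 were not above background either.

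Acvr1, the type I receptor ALK2, was 3.05, 3.39, 2.20, 3.11 and 2.32 in subcapsular and 1.80, 1.29, 1.59, -0.16 and -0.30 in medullary LCM samples. The groups did not overlap, and the difference of -1.97 ± 0.58 (adjusted p = 0.257) had the lowest adjusted p of the 38. Tgfbr2, the type II receptor for TGF-beta, differed by -1.75 ± 0.66 (adjusted p = 0.358), the ligand trap Chrd by -1.25 ± 0.54 (adjusted p = 0.411) and its relative Chrdl1 by 1.93 ± 1.01 (adjusted p = 0.489). The number of genes of each role above and below 0 was 4 and 4 for ligands, 4 and 6 for receptors, 4 and 1 for Smads and Smurfs, 6 and 5 for inhibitors and 1 and 3 for targets.

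**Figure D4:**
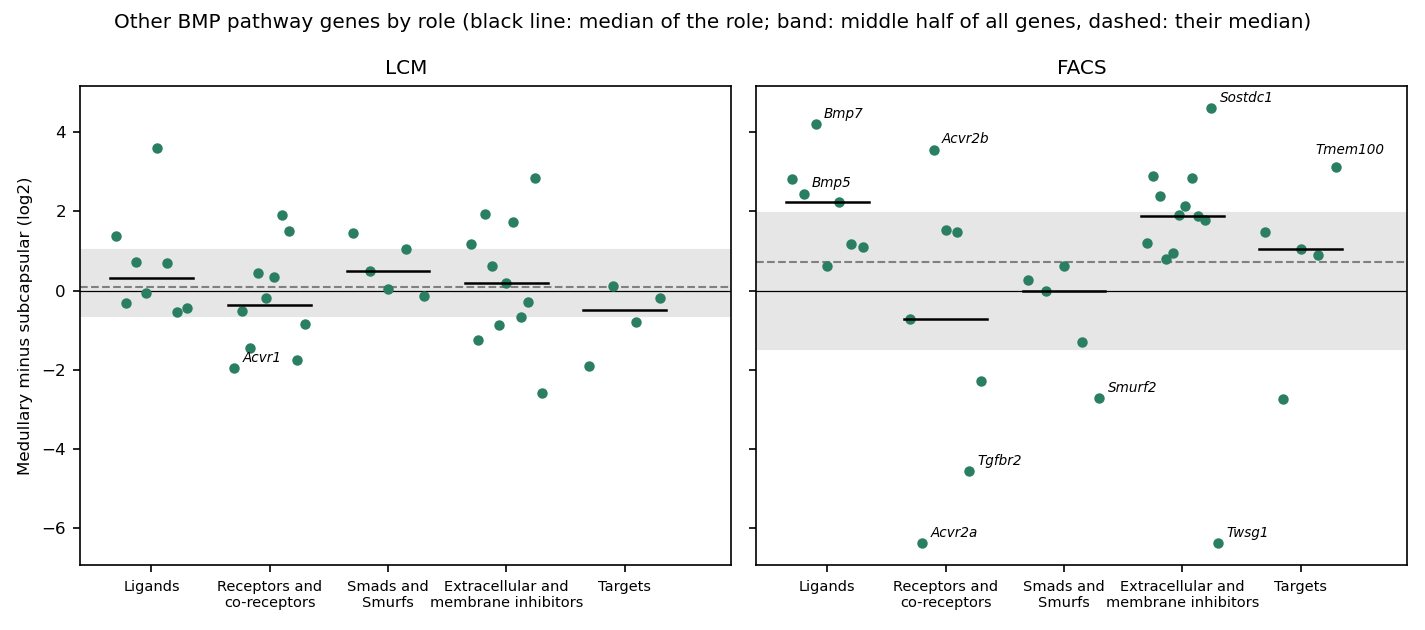
Medullary minus subcapsular difference (vertical axis, log2) of the other BMP pathway genes tested in LCM (left) and FACS samples (right), 1 point per gene by role, with a black line at the median of the role, the interquartile range of all genes as a grey band, their median as a dashed line, and names at an unadjusted p under 0.02. No gene passed the adjusted threshold, the ligands in FACS all lie above 0, and Acvr2a and Twsg1 are the lowest, at -6.39 and -6.38.

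In FACS samples 36 of the 54 were tested and limma called 0, with 10 higher and 5 lower at an unadjusted p under 0.05, a mark that 31.9% of all genes passed. The median was 1.19 beside 0.73 over all genes, and 27 differences were above 0, as were 59.5% of all genes. Ligands were above 0 in 7 of 7, inhibitors in 11 of 12, targets in 4 of 5, receptors in 3 of 7 and Smads and Smurfs in 2 of 5. The 3 genes with the lowest p among those above 0 were Sostdc1, an extracellular inhibitor, at 4.62 ± 0.76 (at least 7.32-fold, adjusted p = 0.0777), Tmem100, an endothelial target of ALK1, at 3.13 ± 0.63 (adjusted p = 0.0928), and Bmp7 at 4.21 ± 0.94 (adjusted p = 0.103).

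Below 0 in FACS samples were the type II receptor Acvr2a, at -0.33 and -0.11 in the subcapsular pair and not above background in the medullary pair (at least 18.7-fold lower in the latter, adjusted p = 0.0647), and the extracellular modulator Twsg1, at -0.82 and 0.72 and likewise not above background in the medullary pair (at least 21-fold lower, adjusted p = 0.0647). Tgfbr2 was 4.10 and 3.97 against -0.30 and -0.74 (-4.56 ± 0.57, adjusted p = 0.066). None of these passed the threshold, and 4 of the 36 were called with eBayes in its trend and robust form (6.51% of all genes were) and 6 in a fit of all 14 arrays (16.2% of all genes). The test of sinus against isolation called 0 of 41 pathway genes with limma, with 5 higher and 2 lower at an unadjusted p under 0.05 and a lowest adjusted p of 0.0786, that of Chrd.

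Between the isolations, 41 of the 54 pathway genes were tested, and 3 were called lower in FACS than in LCM samples, beside 2.04% of all genes called lower and 1.82% called higher. These 3 are named after their values were seen. Tgfbr3 (betaglycan), a co-receptor related to endoglin, was lower in FACS samples, with a difference of -3.67 ± 0.65 (adjusted p = 0.00674). It was -0.29 to 3.82 on the LCM arrays and -1.63, -0.05, -3.50 and -2.78 on the FACS arrays, so that 3 of 4 FACS values lay below every LCM value. For Tgfbr2 the difference was -2.46 ± 0.49 (adjusted p = 0.0133) and for Acvr1 -2.42 ± 0.56 (adjusted p = 0.0311).

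None of the 3 was called with the slide as a block or in the medullary arrays of slide 2 alone. Tgfbr3 was called in the other 9 settings, and without each array except subcapsular FACS replicate 6 (-3.28, adjusted p = 0.0593). Tgfbr2 also lost its call with averaged probes (-1.12, adjusted p = 0.584) and without subcapsular FACS replicate 6 (adjusted p = 0.0712) or 7 (adjusted p = 0.0817). Acvr1 was called in only 4 of 11 settings. It lost its call without subcapsular LCM replicate 4, medullary LCM replicate 1, 2 or 3, subcapsular FACS replicate 7 or medullary FACS replicate 7, with adjusted p-values of 0.053 to 0.187. Fibroblastic reticular marker sums were 42.9 to 391 on the LCM and 6.7 to 15.5 on the FACS arrays, and their part in these differences was not tested.

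The genes whose centred log2 values over the 14 arrays lay closest to a BMP gene were taken for the 4 most variable of the BMP genes above background on at least 10 arrays, out of 12337 candidates. Likeness is the root mean square difference in log2 units. Closest to Eng (SD 2.90 over the arrays) were Tbc1d9b at 0.95, Tfpi, which encodes the endothelial inhibitor of tissue factor, at 1.04, and Frs2, an adaptor of growth factor receptors, at 1.13. Closest to Bmp2 (SD 2.50) were Prr16 at 1.42, Rxrg at 1.43 and Arid3a at 1.45, and closest to Id3 (SD 2.10) Arl2 at 0.97, Btbd9 at 1.02 and Rxrg at 1.23. Closest to Bmpr2 (SD 1.53) were Tdp1 at 0.75, Cdc42bpb at 0.75 and Scml2 at 0.76. Rxrg, a retinoid X receptor gene, stood near both Bmp2 and Id3. These arrays share their scaling and amplification, and no test was made.

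The promoters of Id3 and Smad6 are shown because they are the targets at opposite ends of detection, Id3 above background on all 14 arrays and Smad6 on 0. Both come from RefSeq on the build GRCm38.p6 and are printed 5′ to 3′ on the gene's own strand, up to the start site for Id3 and to 4 bases past it for Smad6, with matches to the searched motifs in capitals. The windows searched ran from 250 bases before to 50 after the start, and 6 of the 10 genes had an entry. Bmp2, Bmp3, Acvrl1 and Id1 were not among them.
Id3 promoter: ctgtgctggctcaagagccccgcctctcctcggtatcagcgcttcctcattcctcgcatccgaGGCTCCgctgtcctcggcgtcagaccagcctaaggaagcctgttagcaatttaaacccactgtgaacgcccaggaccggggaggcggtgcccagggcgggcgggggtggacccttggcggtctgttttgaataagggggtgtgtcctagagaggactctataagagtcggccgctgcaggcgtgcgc
Smad6 promoter: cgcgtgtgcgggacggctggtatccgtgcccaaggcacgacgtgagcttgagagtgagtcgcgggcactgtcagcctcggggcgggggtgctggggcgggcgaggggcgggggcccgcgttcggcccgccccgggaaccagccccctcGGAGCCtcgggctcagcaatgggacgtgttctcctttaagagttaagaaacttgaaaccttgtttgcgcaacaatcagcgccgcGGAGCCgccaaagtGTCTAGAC

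The Id3 sequence lies at chr4:136143572-136143821 (plus strand) and the Smad6 sequence at chr9:64022056-64022309 (minus strand). The motifs were the GC-rich Smad elements GGCGCC and GGAGCC and the palindrome GTCTAGAC of the Smad box, searched on both strands, and no matches in these genes overlapped. Id3 held GGAGCC once on the reverse strand, at position -187 relative to the start. Smad6 held it at -102 and -18, and GTCTAGAC at -4. Bmpr2 held GGCGCC at -105 and Bmp4 held GGAGCC on the reverse strand at -32, and Eng and Bmp6 held none of the 3.

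Over all 32851 promoters of the same 300 bases, GGCGCC was present in 11.9%, GGAGCC in 30.8% and GTCTAGAC in 0.213%. A match is a run of letters, not a measured binding site.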

How the data were processed

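Lymphatic endothelial cells from both sinuses were measured on 14 one-colour arrays (groups and replicate numbers from the titles, isolation from the cell type label). Per the file headers, the intensity values in the scanner files are those that Agilent Feature Extraction 10.7.3.1 had corrected for background, without scaling between arrays. The authors also deposited log2 values with a median of 5.43 on every array. How these were made is not given in the sources used here, and they served as an alternative. RNA was amplified and labelled with Cy3 per the labels' protocols.

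Here each intensity was log2 transformed and the 75th percentile of its array subtracted. 1725 spot values marked as outliers were left out. Genes entered a comparison when well above background on at least 3 of 5 LCM arrays or 2 of 2 FACS arrays of a sinus. Every such gene went into the limma fit (version 3.58.1, R 4.3.3, data.table package 1.17.8), and p-values were adjusted by Benjamini-Hochberg over all genes tested. Where all 14 arrays were fitted, the model held 4 group means, with weights estimated per isolation. Of 55681 probes, 27235 took a name through their RefSeq accession, 3581 through a current and 565 through an older symbol, and 24300 stayed under the scanner file's name. The 2 sinus comparisons, without weights, were checked on simulated data with independent noise and no detection floor. The fits over 14 arrays were not checked in this way. The number of arrays limits the precision. Figures were drawn with matplotlib 3.10.9.

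1 pathway gene is not reported here. The BMP genes and every list were chosen with earlier results of these data known. Pathway genes were named when called in a sinus comparison, and otherwise the 3 lowest p-values on each side of 0. Like genes had to be above background on at least 10 of 14 arrays. Alternatives were normexp (offset 50), quantile normalization, another percentile, the deposited values, other filters, averaged probes, eBayes with trend and robust options, all arrays in 1 fit, no array weights, blocks by replicate number, slide or row, single slides, and leaving out each array.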

Additional observations from a re-analysis of the deposited data

Results flagged for a closer look

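Bmp4 on subcapsular LCM replicate 2, at 2.87, stood apart from the other 4 subcapsular LCM arrays (-1.31 to -0.38). Its gap to the nearest of them was 0.777 of the group's range, above the critical value of 0.71 for 5 samples. It was 1 of 20 groups examined (10 genes, both LCM groups), and chance flags about 1 in 20. The same array had the lowest share of probes above background, 50.77%, and the highest values of the 14 arrays for Eng (6.84) and Bmpr2 (1.72).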

How the results depend on the processing

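In LCM samples the number of BMP genes called fell from 1 to 0 with normexp, quantile normalization, the deposited values, the replicate block and the row block. It was 1 in each of the other 8 settings and with any 1 array left out. The all-gene count of 48 became 8 with normexp, 15 with quantile, 16 with the deposited values, 14 with the row block, 104 with the stricter filter, 127 with the slide block, 229 with the other percentile and 248 on slide 1, and 23 to 104 without an array. The FACS count of 0 became 1800 with the trend and robust options of eBayes and 4483 in the fit over 14 arrays. The interaction count of 383 became 682 with normexp, 1151 with quantile, 1135 with the deposited values, 576 with the stricter filter, 255 without a filter, 46 with the slide block, and 11 to 1270 without an array, and without array weights its share of genes went from 1.29% to 0.361%. The FACS minus LCM count of 1145 became 748 without weights, 186 with the slide block, 0 on slide 2, and 618 to 1664 without an array. The causes were not tested. Other scalings moved the median of all genes from 0.08 to between -0.01 and 0.81 in LCM and from 0.73 to between 0.43 and 0.84 in FACS, and normexp moved it to -0.16 and 0.62.

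Samples of the same replicate number were hardly correlated (-0.023 to 0.009 in LCM, and 0.018 for both numbers in FACS). Such values cannot show whether these samples shared an animal or a batch, so whether the numbers pair samples is not known. With the replicate block Bmp3 was 6.00 (adjusted p = 0.171) and 0 genes were called in LCM, FACS or the interaction. No paired analysis was possible for FACS minus LCM because the isolations share no replicate number.

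Signs that turned belonged to differences that were not called. In LCM, Bmpr2 was -0.24 with normexp, -0.30 with quantile and -0.28 in the deposited values, Acvrl1 was 0.09 with quantile, 0.41 with the other percentile and 0.06 in the deposited values, and Id1 was -0.28 with quantile and in the deposited values. In FACS, Bmp6 was -0.08 with quantile and -0.06 in the deposited values. In FACS minus LCM, Bmpr2 was -0.08 with normexp, Bmp4 0.08 and Bmp6 0.10 with the other percentile, Bmp2 0.42, Bmp4 0.30 and Bmp6 1.60 with the slide block, and Bmp2 1.85, Bmp4 1.49, Bmp6 0.92 and Id3 0.86 on slide 2.

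Leaving out 1 array moved the interaction count over 0 to 1 (1 without subcapsular LCM replicate 2, Eng at -7.68). It turned signs in LCM (Bmpr2 -0.39 to 1.11, Acvrl1 -0.77 to 0.34), in FACS (Bmp2 -1.38 to 2.78, Bmp6 -0.97 to 2.31, Id3 -0.41 to 2.42), in the interaction (Bmp6 -2.12 to 1.16) and in FACS minus LCM (Bmp2 -1.44 to 0.64, Bmp4 -0.78 to 0.48, Bmp6 -0.95 to 0.69, Acvrl1 -0.09 to 1.00). Where a FACS arm was left with 1 sample, it was assumed to vary like the other. Signals near background limit Bmp3, Smad6, Id1 and Bmp2.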
